A study of Mus musculus with 4 samples.

Results

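Cells recognise foreign or misplaced nucleic acids in the cytosol with a small set of proteins, and the transcripts of 10 genes of that system were followed across all 4 libraries of a study of mouse colon stroma. Zbp1, Ddx58, Ifih1, Dhx58 and Mb21d1 encode sensors, Mavs and Tmem173 adaptors, Tbk1 a kinase, Eif2ak2 a kinase activated by double-stranded RNA, and Adar an RNA editing enzyme. The genes were chosen by name, and all 10 were found among the 23284 gene symbols of the files. Of these, 9 are listed under the names used here, and Mb21d1, now called Cgas, is listed as E330016A19Rik, a synonym given by RefSeq.

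RNA was sequenced from living podoplanin-positive cells sorted from the whole large intestine, and CD45-positive leukocytes, CD31-positive endothelium and EpCAM-positive epithelium were gated out. The groups were C57BL/6J mice with the genotype IL-10 KO (knockout), C57BL/6J wild-type (WT) mice, BALB/c mice with the genotype Rag2 KO and BALB/c wild-type mice, with 1 library each. The study, by its title, is about IL-10 signalling to fibroblasts and type I interferon. IL-10 is a cytokine that restrains intestinal inflammation, and Rag2 is needed to assemble antigen receptors, so that mice without it lack mature T and B cells. The labels give no treatment, age, sex or number of pooled animals, and no value below has a replicate error, so none of the comparisons between libraries carries a test.

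RIG-I (encoded by Ddx58) and MDA5 (Ifih1) bind double-stranded or triphosphate-ended RNA and signal through MAVS on mitochondria. cGAS (Mb21d1) binds DNA and makes a cyclic dinucleotide that activates STING (Tmem173), and both routes lead to the kinase TBK1, which activates the transcription factor IRF3 and thereby type I interferon. Most of these genes are themselves induced by interferon, and in the colon the pathway is known for responses to microbes and to damaged epithelium.

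Levels are given as FPKM computed by the authors, in which fragment numbers are divided by transcript length and by the mapped fragments of the library. The estimated depth was about 8313000 fragments in the library labelled IL-10 KO, 8655000 in C57BL/6J WT, 9598000 in the Rag2 KO and 9872000 in BALB/c WT. Il10 had 129.9 FPKM in the library labelled IL-10 KO, against 3.33 in C57BL/6J WT, so the gene was high in a library labelled as lacking it. A level of the whole gene cannot tell if a deleted stretch was transcribed, and every direction given for that library rests on its label. Rag2 was listed at 0.712 FPKM in the Rag2 KO and at 0 in BALB/c WT, whereas Igj, the antibody joining chain, had 1.36 and 428 FPKM in the same libraries. The sort marker Pdpn ranged from 158 to 293 FPKM over all libraries, and Ptprc, which encodes CD45, from 3.34 to 43.1. Xist, transcribed from the X chromosome that is silenced in females, had 44.9 FPKM in the library labelled IL-10 KO and 23.02 in C57BL/6J WT, and the Y-linked Ddx3y had 0.0269 and 16.9 FPKM, so that C57BL/6J WT held both. In the Rag2 KO and BALB/c WT, Xist had 0.105 and 0.0509 FPKM, and Ddx3y had 31.5 and 36.3 FPKM. Genotype, sex and animal cannot be told apart in the IL-10 KO comparison, and genotype and animal cannot in the Rag2 KO comparison. Nor can strain, sex and animal be told apart between the wild types.

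In the comparison of the library labelled IL-10 KO with C57BL/6J WT, 4 of the 10 genes reached a 2-fold higher level and 0 a 2-fold lower one. Differences are given in log2 of FPKM plus 1, and 2-fold means a difference of at least 1 among genes with 1 FPKM or more in either library. The higher genes were Zbp1, Dhx58, Eif2ak2 and Tmem173, and Adar lay just below the limit. Of all 12790 genes compared, 10.1% reached 2-fold higher and 3.82% 2-fold lower levels. In the Rag2 KO against BALB/c WT, 3 of the 10 genes (Zbp1, Dhx58 and Eif2ak2) were on the higher side and 0 on the lower, where 4.42% and 2.03% of 12336 genes were, and Ifih1 lay just below the limit. Of all genes 2-fold apart in the Rag2 KO comparison 68.5% were higher, and 51.0% were with small RNAs left out and the libraries rescaled. The median difference of the 10 genes was 0.81 in the IL-10 KO comparison and 0.74 in the Rag2 KO comparison, beside -0.0018 and -0.0041 over all genes compared. Ptprc was higher too (43.1 against 3.34 FPKM, and 11.5 against 8.31 FPKM), and the part of leukocyte RNA in these differences was not tested.

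Both knockout libraries lay above both wild-type libraries for 7 of the 10 genes, namely Zbp1, Ddx58, Ifih1, Dhx58, Tmem173, Eif2ak2 and Adar. Of the 13078 genes with at least 1 FPKM in any library, 25.4% showed that order. Tbk1, Mavs and Mb21d1 did not show it. Between the wild types, BALB/c against C57BL/6J, 0 of the 10 genes were 2-fold apart in either direction, beside 1.81% of 12290 genes higher and 2.17% lower in BALB/c.

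**Figure D1:**
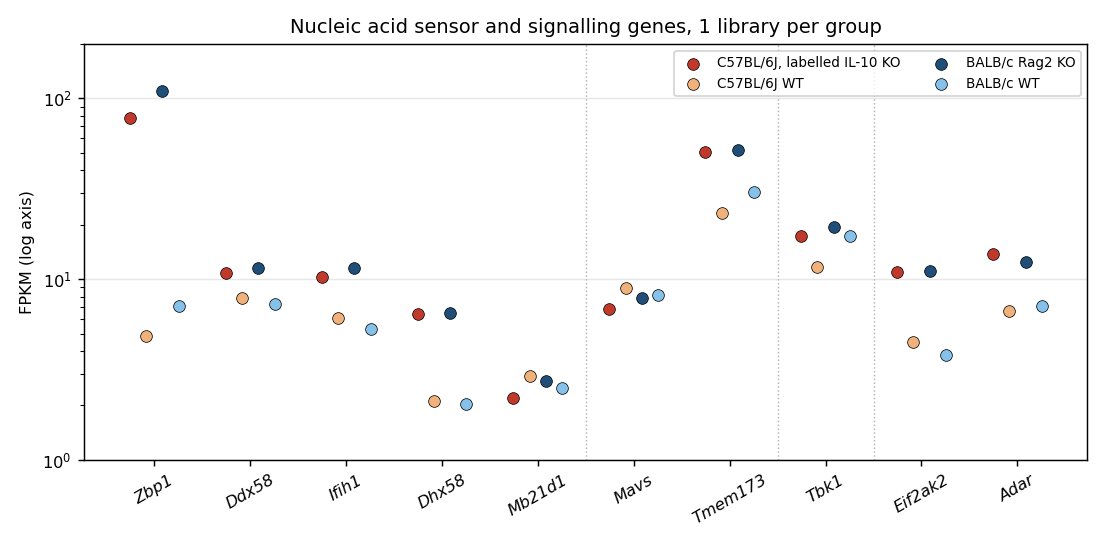
FPKM of the 10 genes (log axis) in the 4 libraries, 1 point per library, ordered as sensors, adaptors, kinase, and the RNA-activated kinase and editing enzyme. Zbp1 stands at 77.6 and 109 FPKM in the knockout libraries and at 4.86 and 7.14 in the wild types, whereas the 4 points of Mavs lie between 6.84 and 8.87 FPKM.

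Zbp1 encodes a sensor of left-handed (Z-form) nucleic acids that recruits the kinase RIPK3 and can start necroptosis, an inflammatory form of cell death. The gene lies on chromosome 2, 173206612 to 173218959 (GRCm38/mm10, as all positions below). It had 77.6 FPKM in the library labelled IL-10 KO, against 4.86 FPKM in C57BL/6J WT, and 109 FPKM in the Rag2 KO, against 7.14 FPKM in BALB/c WT. The lower knockout library was 10.9-fold above the higher wild type. The differences were 3.75 and 3.76 in log2 of FPKM plus 1, so the comparisons in the separate strains gave nearly the same value although they share no library. Ranked from the highest difference down, Zbp1 was 79th of the 12790 genes compared in the IL-10 KO comparison and 31st of 12336 in the Rag2 KO comparison.

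The depth behind Zbp1 was about 1161 fragments in the library labelled IL-10 KO and 76 in C57BL/6J WT, and 1888 in the Rag2 KO and 127 in BALB/c WT. The ratio of FPKM with nothing added was 15.98-fold in the IL-10 KO comparison, with a 95% counting interval of 3.66 to 4.35 on the log2 scale, and 15.3-fold in the Rag2 KO comparison, with an interval of 3.67 to 4.21. These intervals, exact and conditional on the sum of both fragment numbers, cover counting error only and leave out the variation between animals. In bulk RNA, more cells that express a gene cannot be told apart from more RNA per cell.

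Zbp1 took up 37.6% of the summed FPKM of the 10 genes in the library labelled IL-10 KO, against 6.16% in C57BL/6J WT, and 44.8% in the Rag2 KO, against 7.85% in BALB/c WT. By level per length it was first of the 10 genes in both knockout libraries, whereas in C57BL/6J WT it was in place 7 and in BALB/c WT in place 5, and Tmem173 came first.

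**Figure D2:**
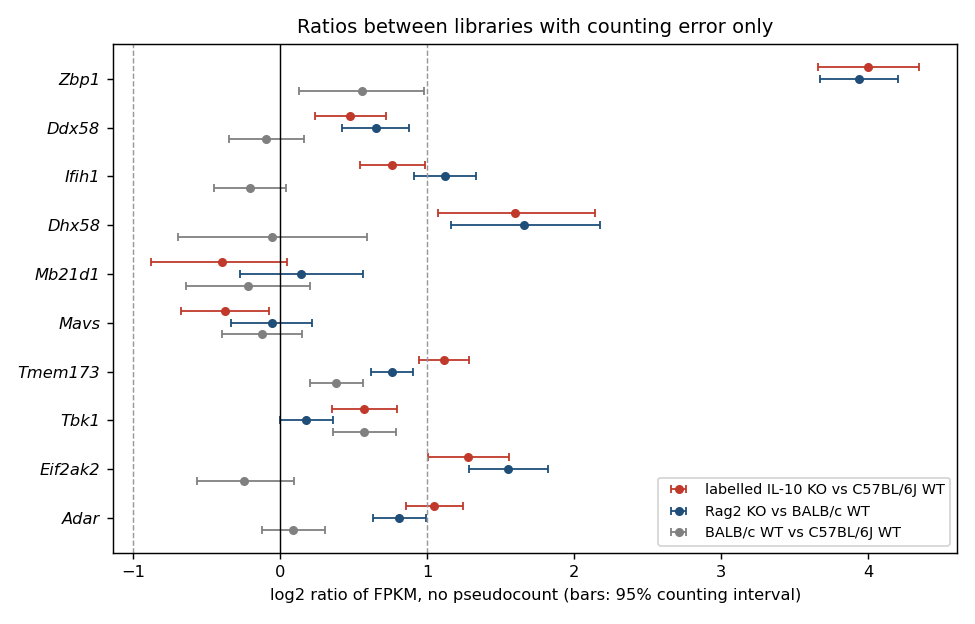
Log2 ratio of FPKM with no pseudocount between libraries (points) with its 95% counting interval (bars) for each of the 10 genes, in the IL-10, Rag2 and wild-type strain comparisons. The dashed lines mark 2-fold. For Zbp1 the knockout intervals start at 3.66 and do not reach those of any other gene, and for Mb21d1 all 3 intervals include 0.

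The RIG-I-like receptors were higher in the knockout libraries to different degrees, with Dhx58 showing the highest ratios and Ddx58 the lowest. Dhx58 (chromosome 11, 100694884 to 100704271) encodes LGP2, which binds RNA but lacks the domains that signal to MAVS and modulates the other receptors. It had 6.43 FPKM in the library labelled IL-10 KO, against 2.13 in C57BL/6J WT (difference 1.25), and 6.45 FPKM in the Rag2 KO, against 2.05 in BALB/c WT (1.29). The knockout values were close to each other, as were the wild-type values, which rest on only 41 and 45 fragments. The counting intervals of the log2 FPKM ratio were 1.07 to 2.14 in the IL-10 KO comparison and 1.16 to 2.18 in the Rag2 KO comparison.

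Ifih1 (chromosome 2, 62595618 to 62646255), the gene of MDA5, a receptor of long double-stranded RNA, had 10.3 FPKM in the library labelled IL-10 KO, against 6.09 in C57BL/6J WT (0.68). It had 11.5 FPKM in the Rag2 KO, against 5.28 in BALB/c WT (0.99). Its counting intervals, 0.54 to 0.98 and 0.91 to 1.33 on the log2 scale, leave out 0 in both comparisons, and whether the comparisons differ from each other was not tested. Ddx58 (chromosome 4, 40203777 to 40239825), the gene of RIG-I, had 10.9 FPKM in the library labelled IL-10 KO, against 7.82 in C57BL/6J WT (0.43), and 11.5 FPKM in the Rag2 KO, against 7.30 in BALB/c WT (0.58). Its ratios of 1.39-fold and 1.57-fold were the smallest of the 7 genes whose knockout libraries both lay above the wild types. Of all genes compared, 21.2% had a higher difference than Ddx58 in the IL-10 KO comparison, and 10.3% in the Rag2 KO comparison. Ifih1 and Dhx58 overlap the annotated long non-coding RNAs Gm39839 and Gm38483, which were not analysed here, so fragments from these could be included in their levels.

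Unlike the genes of the RNA receptors, the DNA sensor gene did not lie above both wild types in both knockout libraries. Mb21d1 (chromosome 9, 78430518 to 78443237), which encodes cGAS, had 2.197 FPKM in the library labelled IL-10 KO, against 2.89 in C57BL/6J WT (-0.28), and 2.75 FPKM in the Rag2 KO, against 2.48 in BALB/c WT (0.10). It was the lowest of the 10 genes in both knockout libraries. With 70 to 102 fragments per library, the counting intervals of -0.88 to 0.05 and -0.27 to 0.56 both include 0, so no difference was detectable at this depth. In the Rag2 KO comparison the Mb21d1 interval overlaps that of Ddx58 (0.42 to 0.88), and whether these genes differ from each other was not tested.

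Promoter sequence is shown for genes that were higher in the knockout libraries and for Mavs, which was not, because the receptor genes were higher in both knockout libraries and are known interferon targets. RefSeq windows of 300 bases (GRCm38.p6), 250 before the start of transcription and 50 after it, were matched for 7 of the 10 genes, in 9 windows, since Adar has several starts. Zbp1, Dhx58 and Tmem173, which were also higher, are not among these 7 genes. They were searched on both strands for GAAANNGAA, the core of the interferon-stimulated response element, for its longer form with 1 more A at the 3′ end, whose matches all hold the shorter one, and for TTCNNNGAA, the core of the gamma-activated site. Over all 32851 windows of the table, 3.44% held the longer core, 8.56% the shorter and 8.30% the gamma-activated core. In the sequences below, 5′ to 3′ on the gene's strand, capitals mark every match to the shorter or longer interferon core.
Ifih1, minus strand, chr2:62646206-62646505: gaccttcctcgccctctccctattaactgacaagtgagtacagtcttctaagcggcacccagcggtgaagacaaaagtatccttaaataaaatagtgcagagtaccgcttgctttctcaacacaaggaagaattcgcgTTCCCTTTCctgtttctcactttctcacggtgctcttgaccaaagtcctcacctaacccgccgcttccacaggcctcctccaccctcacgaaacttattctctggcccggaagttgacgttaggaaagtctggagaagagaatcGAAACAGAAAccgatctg
Ddx58, minus strand, chr4:40239776-40240075: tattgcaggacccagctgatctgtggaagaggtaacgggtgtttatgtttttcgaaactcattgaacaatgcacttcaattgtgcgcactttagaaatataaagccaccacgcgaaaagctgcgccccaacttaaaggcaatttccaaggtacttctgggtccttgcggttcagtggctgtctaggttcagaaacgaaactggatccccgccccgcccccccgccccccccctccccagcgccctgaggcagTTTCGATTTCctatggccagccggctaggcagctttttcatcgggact
Eif2ak2, minus strand, chr17:78882523-78882822: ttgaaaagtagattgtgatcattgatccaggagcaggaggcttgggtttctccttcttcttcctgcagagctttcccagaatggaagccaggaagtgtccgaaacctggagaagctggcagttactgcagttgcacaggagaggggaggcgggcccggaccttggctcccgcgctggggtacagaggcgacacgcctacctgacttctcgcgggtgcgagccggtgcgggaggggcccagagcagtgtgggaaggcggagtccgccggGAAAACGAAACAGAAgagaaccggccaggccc
Adar, plus strand, chr3:89730468-89730767: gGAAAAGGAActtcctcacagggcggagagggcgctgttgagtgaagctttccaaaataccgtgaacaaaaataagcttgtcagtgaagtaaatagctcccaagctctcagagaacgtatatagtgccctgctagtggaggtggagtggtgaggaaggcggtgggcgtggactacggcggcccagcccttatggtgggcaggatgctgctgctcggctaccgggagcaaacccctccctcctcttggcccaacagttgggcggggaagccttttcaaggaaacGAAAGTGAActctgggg
Mavs, plus strand, chr2:131233813-131234112: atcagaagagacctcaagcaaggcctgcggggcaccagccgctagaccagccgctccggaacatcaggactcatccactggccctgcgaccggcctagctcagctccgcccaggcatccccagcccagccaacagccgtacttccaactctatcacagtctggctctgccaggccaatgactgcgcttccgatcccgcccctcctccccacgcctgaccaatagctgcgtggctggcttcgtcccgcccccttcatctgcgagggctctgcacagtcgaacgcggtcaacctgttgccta

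The longer core stood in the windows of Ifih1, Ddx58 and Eif2ak2, in each case just after the start of transcription: from base 33 in Ifih1 (GAAACAGAAA), from base 3 in Ddx58 (TTTCGATTTC, on the other strand) and from base 19 in Eif2ak2 (GAAAACGAAA). Adar held only the shorter core, in the window of its start furthest downstream, where GAAAGTGAA begins at base 34. In the windows of Mavs, Tbk1 and Mb21d1 none of the 3 sequences was found, which says only that these letters are not in those windows. The gamma-activated core occurred in the Eif2ak2 window, 178 bases before the start, and in the same Adar window at base 23. Such matches are descriptions of sequence and show neither binding nor use.

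The adaptors diverged: Tmem173 was higher in both knockout libraries and Mavs was not. Tmem173 (chromosome 18, 35733678 to 35740554) encodes STING, the membrane adaptor that responds to the cyclic dinucleotide made by cGAS. It had 50.4 FPKM in the library labelled IL-10 KO, against 23.3 in C57BL/6J WT (1.08), and 51.5 FPKM in the Rag2 KO, against 30.4 in BALB/c WT (0.74). The knockout libraries were close to each other, while BALB/c WT lay above C57BL/6J WT. The counting intervals were 0.94 to 1.28 in the IL-10 KO comparison and 0.62 to 0.90 in the Rag2 KO comparison.

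Mavs (chromosome 2, 131234063 to 131248025), the mitochondrial adaptor of RIG-I and MDA5, had 6.84 FPKM in the library labelled IL-10 KO, against 8.87 in C57BL/6J WT (-0.33), and 7.82 FPKM in the Rag2 KO, against 8.13 in BALB/c WT (-0.05). Its counting interval left out 0 in the IL-10 KO comparison (-0.68 to -0.08) and included it in the Rag2 KO comparison (-0.33 to 0.22). The STING transcript exceeded the MAVS transcript per length by 7.38-fold in the library labelled IL-10 KO, against 2.63-fold in C57BL/6J WT, and by 6.59-fold in the Rag2 KO, against 3.74-fold in BALB/c WT.

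Tbk1 (chromosome 10, 121546455 to 121586794), the kinase on which both adaptors converge, differed as much between the wild types as in any knockout comparison. It had 17.3 FPKM in the library labelled IL-10 KO, against 11.6 in C57BL/6J WT (0.53), and 19.5 FPKM in the Rag2 KO, against 17.3 in BALB/c WT (0.17). The value labelled IL-10 KO and that of BALB/c WT could not be separated, and C57BL/6J WT alone was low. Between the wild types, BALB/c against C57BL/6J, the difference was 0.54, with a counting interval of 0.36 to 0.79 on the log2 ratio.

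The RNA-activated kinase gene and the editing gene were higher in both knockout libraries. Eif2ak2 (chromosome 17, 78850504 to 78882572) encodes PKR, which on binding double-stranded RNA phosphorylates the initiation factor eIF2-alpha and halts translation. It had 10.9 FPKM in the library labelled IL-10 KO, against 4.497 in C57BL/6J WT (1.11), and 11.1 FPKM in the Rag2 KO, against 3.80 in BALB/c WT (1.34). The counting intervals were 1.01 to 1.56 and 1.28 to 1.82. The transcribed pseudogene Gm6548 overlaps 2041 bases of Eif2ak2 and was much higher, at 131 FPKM in the library labelled IL-10 KO against 161 in C57BL/6J WT, and 134 in the Rag2 KO against 184 in BALB/c WT. How the authors' counting shared fragments between these overlapping genes is not given in the sources used here, so the level of Eif2ak2 is uncertain.

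Adar (chromosome 3, 89714469 to 89753455) encodes the enzyme that converts adenosine to inosine in double-stranded RNA and so keeps the cell's own RNA from being sensed. It had 13.8 FPKM in the library labelled IL-10 KO, against 6.67 in C57BL/6J WT (0.95), and 12.4 FPKM in the Rag2 KO, against 7.09 in BALB/c WT (0.73). Its FPKM add up transcripts from all its starts, including the interferon-inducible form, and these cannot be told apart here. The counting intervals were 0.85 to 1.24 and 0.63 to 0.99, and the wild types were close, with a difference of 0.08.

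**Figure D3:**
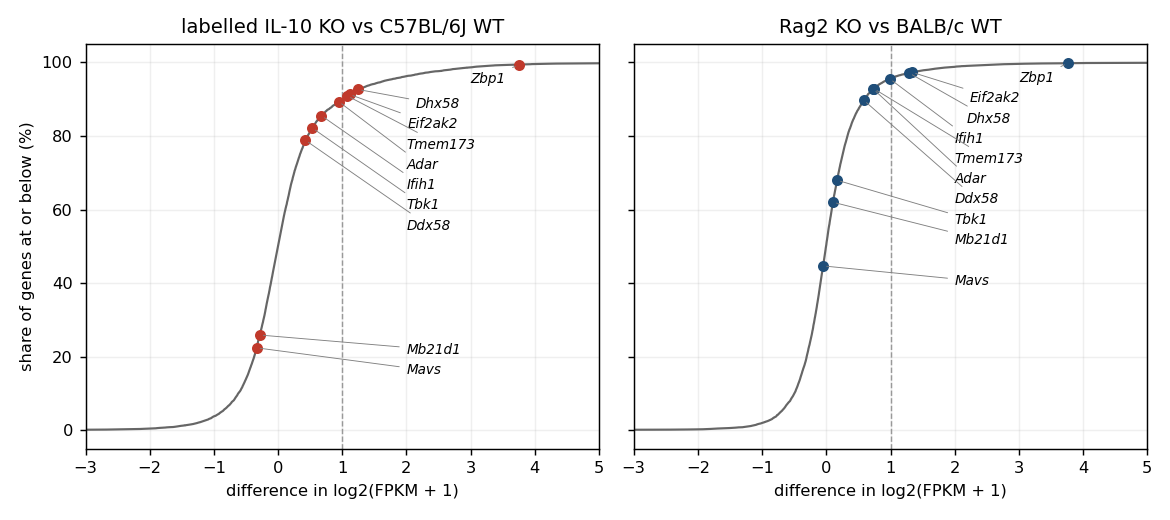
Cumulative share of all compared genes (grey line, %) by their difference in log2(FPKM + 1), with the 10 genes marked on it, for the IL-10 KO comparison (left) and the Rag2 KO comparison (right). The dashed line is 2-fold. Zbp1 stands at 3.75 and 3.76, far beyond the other sensors, and Mavs at -0.33 and -0.05.

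Between the wild types, the differences furthest from 0 among the 10 genes were those of Tbk1 (17.3 FPKM in BALB/c against 11.6 in C57BL/6J, 0.54), Zbp1 (7.14 against 4.86, 0.48) and Tmem173 (30.4 against 23.3, 0.37). The other 7 genes had differences between -0.20 (Eif2ak2) and 0.08 (Adar). Of all genes compared, 8.62% had a higher difference than Zbp1. The IL-10 KO difference less the Rag2 KO difference, from pairs of libraries that share none, lay between -0.39 (Mb21d1) and 0.37 (Tbk1) over the 10 genes and was -0.01 for Zbp1, and none of these was tested.

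Partners of the 10 genes in the same pathways were described from lists. Their counts stand beside 10.1% of all genes at least 2-fold higher and 3.82% lower in the IL-10 KO comparison. In the Rag2 KO comparison these shares were 4.42% and 2.03%. Of 15 regulators of RIG-I-like receptors, 1 was at least 2-fold higher and 0 lower in the IL-10 KO comparison (median 0.20), and 0 and 0 in the Rag2 KO comparison (median -0.09). The higher gene was Rnf125, a ubiquitin ligase, with 10.5 FPKM in the library labelled IL-10 KO and 4.57 in C57BL/6J WT. It had 6.04 FPKM in the Rag2 KO and 7.74 in BALB/c WT. Trim25, the ubiquitin ligase known for activating RIG-I, had 23.2 against 11.6 FPKM (0.94) in the IL-10 KO comparison and 25.2 against 22.3 FPKM (0.17) in the Rag2 KO comparison. All the other regulators were within 2-fold in both comparisons.

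Among 13 measured genes of the TBK1 complex and the IRF3 branch, 2 were at least 2-fold higher in the IL-10 KO comparison (median 0.53) and 1 in the Rag2 KO comparison (median 0.21), with 0 lower in either. Irf7, the interferon-induced factor that amplifies the response, had 78.8 FPKM in the library labelled IL-10 KO, against 26.6 in C57BL/6J WT (1.53), and 107 FPKM in the Rag2 KO, against 38.8 in BALB/c WT (1.43). Irf3, the constitutive factor, had 19.4 FPKM in the library labelled IL-10 KO, against 29.9 in C57BL/6J WT (-0.60), and 20.7 FPKM in the Rag2 KO, against 22.2 in BALB/c WT (-0.10). Ikbke, the kinase related to TBK1, had 18.9 against 10.04 FPKM (0.85) in the IL-10 KO comparison and 12.5 against 10.6 FPKM (0.21) in the Rag2 KO comparison. Tank, a scaffold of TBK1, had 25.8 against 12.1 FPKM (1.04) and 17.7 against 16.0 FPKM (0.14).

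Other DNA sensors and nucleases were mostly within 2-fold. Of 19 genes, 3 were at least 2-fold higher in the IL-10 KO comparison (median 0.29) and 2 in the Rag2 KO comparison (median 0.05), with 0 lower. Samhd1, which degrades deoxynucleotides, had 117 FPKM in the library labelled IL-10 KO, against 34.7 in C57BL/6J WT (1.73), and 139.6 FPKM in the Rag2 KO, against 49.4 in BALB/c WT (1.48). Ifi204, a DNA-binding protein of the p200 family, had 41.1 against 16.6 FPKM (1.26) and 61.3 against 22.8 FPKM (1.39) in the same comparisons. Trex1, the exonuclease that clears cytosolic DNA ahead of cGAS, had 117 against 58.2 FPKM (0.997) and 120.2 against 79.5 FPKM (0.59).

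Of 17 genes of other double-stranded RNA binding proteins and effectors, 8 were at least 2-fold higher and 0 lower in the IL-10 KO comparison (median 0.76), and 6 of 16 were higher and 0 lower in the Rag2 KO comparison (median 0.61). Oas2, which makes the second messenger of RNase L, had 7.00 FPKM in the library labelled IL-10 KO, against 0.844 in C57BL/6J WT (2.12), and 8.26 FPKM in the Rag2 KO, against 0.411 in BALB/c WT (2.71). Ifit1, which binds viral RNA, had 24.6 against 4.38 FPKM (2.25) and 15.6 against 2.47 FPKM (2.26). Oasl1 had 5.47 against 0.597 FPKM (2.02) and 9.58 against 1.88 FPKM (1.88).

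The other kinases of eIF2-alpha and the genes downstream of them were within 2-fold. Of 8 such genes, 0 were 2-fold higher or lower in either comparison, with medians of 0.02 and -0.13. Eif2ak1, the haem-regulated kinase, had 17.3 FPKM in the library labelled IL-10 KO, against 11.5 in C57BL/6J WT (0.56), and 12.4 FPKM in the Rag2 KO, against 12.2 in BALB/c WT (0.02). Atf4, the transcription factor translated when eIF2-alpha is phosphorylated, had 471 against 641 FPKM (-0.44) and 451 against 527 FPKM (-0.23). Eif2ak2 made up 21.8% of the summed FPKM of the 4 kinase genes in the library labelled IL-10 KO, against 11.95% in C57BL/6J WT, and 25.2% in the Rag2 KO, against 9.85% in BALB/c WT.

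Of 8 genes of necroptosis and ZBP1 partners, 2 were at least 2-fold higher in the IL-10 KO comparison (median 0.64) and 3 in the Rag2 KO comparison (median 0.64), with 0 lower. Ripk3, the kinase that ZBP1 recruits, had 15.2 FPKM in the library labelled IL-10 KO, against 6.82 in C57BL/6J WT (1.05), and 17.6 FPKM in the Rag2 KO, against 6.83 in BALB/c WT (1.25). Mlkl, the executioner that RIPK3 phosphorylates, had 17.6 against 9.72 FPKM (0.80) and 27.05 against 5.90 FPKM (2.02). Casp8, the protease that restrains necroptosis, had 12.6 against 6.30 FPKM (0.90) and 9.83 against 5.90 FPKM (0.65). Ripk3 and Mlkl lay above the wild types in both knockout libraries, Ripk3 by less than Zbp1. Ripk1, a gene of the same list named after its values were seen, was lower in both comparisons, within 2-fold. It had 40.8 FPKM in the library labelled IL-10 KO, against 58.8 in C57BL/6J WT (-0.52). In the Rag2 KO it had 52.0 FPKM, against 66.9 in BALB/c WT (-0.36).

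Of 9 measured genes of type I interferon signalling, 3 were at least 2-fold higher and 0 lower in each comparison, with medians of 0.76 and 0.43. Stat2, a transcription factor activated by the type I interferon receptor, had 47.2 FPKM in the library labelled IL-10 KO, against 19.4 in C57BL/6J WT (1.24), and 44.4 FPKM in the Rag2 KO, against 17.7 in BALB/c WT (1.28). Ifnb1, the interferon produced downstream of TBK1, was at 0.212 FPKM in the library labelled IL-10 KO and 0.183 in the Rag2 KO, about 1 fragment in each, and was listed at 0 in both wild types, so no difference was detectable. As a set of interferon-induced effectors for comparison, 8 of 12 genes were at least 2-fold higher in each comparison, with medians of 1.26 and 1.89, and Isg15 had differences of 2.18 and 2.19. The 10 sensing genes had the lower medians (0.81 and 0.74), and on the same scale of log2(FPKM + 1), which understates genes with low levels, the difference of Zbp1 was above those of all 12 genes in both comparisons. With nothing added, Mx1, an antiviral GTPase gene named after its values were seen, had a higher ratio than Zbp1 in the Rag2 KO comparison (4.21 FPKM in the Rag2 KO against 0.242 in BALB/c WT), with a counting interval of 2.94 to 5.59 on the log2 scale that holds the ratio of Zbp1.

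**Figure D4:**
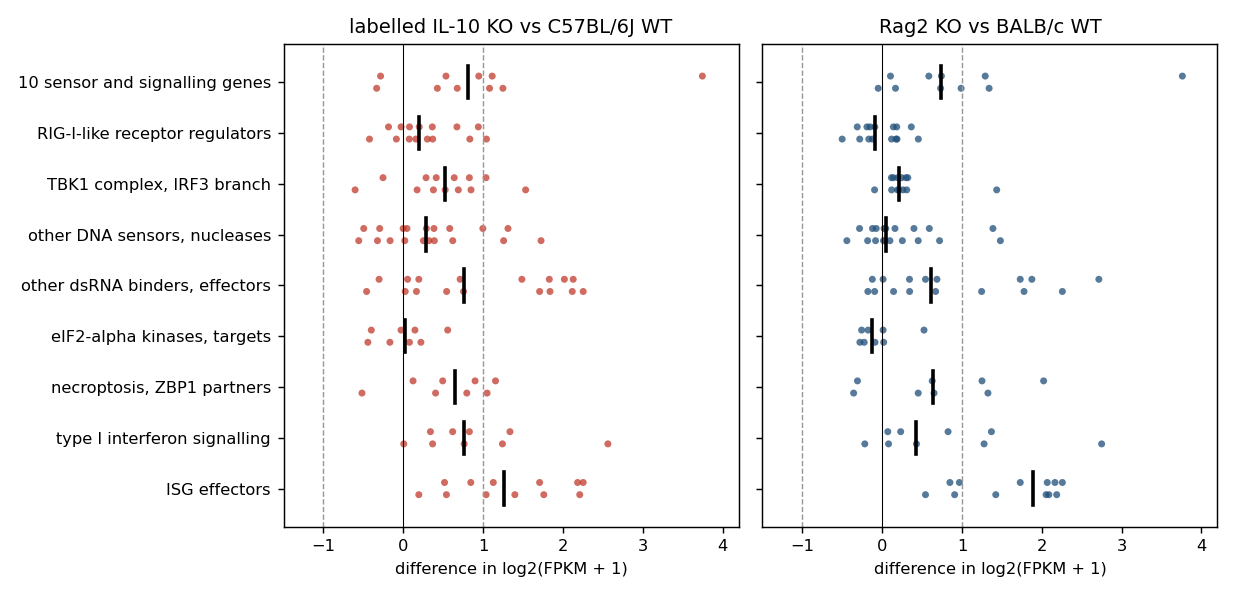
Difference in log2(FPKM + 1) of each gene (points) in the 10 genes and in 8 lists of related genes, with the median (black bar), for the IL-10 KO comparison (left) and the Rag2 KO comparison (right). Dashed lines mark 2-fold. Medians run from 0.02 (eIF2-alpha kinases and targets) to 1.26 (ISG effectors, interferon-induced genes) on the left and from -0.13 to 1.89 on the right.

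Genes with the most similar profile were sought for Zbp1, Ddx58 and Mavs, by the Euclidean distance over the 4 libraries of log2(FPKM + 1) centred on each gene's mean, among 8783 genes that reach 5 FPKM. The 5 nearest to Zbp1 were Cxcl9 and Cxcl5, which encode chemokines, Ubd, Il18bp and Gbp5, at distances of 0.38 to 0.52. Cxcl9 had 123 FPKM in the library labelled IL-10 KO, against 6.91 in C57BL/6J WT, and 145 FPKM in the Rag2 KO, against 7.92 in BALB/c WT. Of the other sensing genes, Dhx58 was the nearest and came 307th, at a distance of 2.53; Mb21d1 did not reach 5 FPKM and was not ranked. Among the genes nearest to Ddx58 were Psma1, Snrpa1, Psma6 and Mrps15 (distances 0.02 to 0.05), and the 5 nearest to Mavs were Pde6d, Micall1, Mkln1, Ube2o and Hnrpdl (0.02 to 0.03). With 4 libraries these distances only order profiles.

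The gate was meant to remove leukocytes, endothelium and epithelium, and the levels of their markers are given beside those of the sensing genes. All 12 pan-haematopoietic markers were at least 2-fold higher in the library labelled IL-10 KO, with a summed level of 1071 FPKM against 97.2 in C57BL/6J WT. In the Rag2 KO comparison 3 of 12 were higher and 1 lower, with 325 FPKM against 184 in BALB/c WT. Zbp1 differed by 15.98-fold and 15.3-fold in the same comparisons, and the part of leukocyte RNA in these differences was not tested.

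For macrophages and monocytes, 10 of 11 markers were higher in the IL-10 KO comparison (1248 against 178 FPKM summed) and 4 of 11 in the Rag2 KO comparison (646 against 322 FPKM). Neutrophil markers were higher for 8 of 8 and for 6 of 6 compared (3869 against 10.5 FPKM, and 246 against 24.8 FPKM). Cxcr2, Ngp and Camp were listed at 0 in C57BL/6J WT, as was Cxcr2 in BALB/c WT. In the Rag2 KO comparison, Ngp (0.216 against 0.210 FPKM) and Camp (0.264 against 0.256 FPKM) were below 1 FPKM and not counted. T cell and innate lymphoid markers were higher for 9 of 11 in the IL-10 KO comparison (188 against 67.1 FPKM), where Ncr1 was listed at 0 in wild type. In the Rag2 KO comparison 1 of 11 was higher and 3 lower (115 against 84.1 FPKM, most of it Thy1, which fibroblasts also express), and Cd3g was listed at 0 in the knockout. Lymphocyte markers thus went different ways in the separate comparisons. B and plasma cell markers were higher for 8 of 9 in the IL-10 KO comparison (499 against 251 FPKM), with Pax5 listed at 0 in wild type. In the Rag2 KO comparison 7 of 9 were lower (4.75 against 466 FPKM), with Pax5 and Pou2af1 listed at 0 in the knockout.

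Plasmacytoid dendritic cells, strong producers of type I interferon, had 5 of 6 markers higher in the IL-10 KO comparison (119 against 59.6 FPKM, Ccr9 listed at 0 in wild type) and 0 of 4 in the Rag2 KO comparison, where 1 was lower (90.8 against 59.9 FPKM, Ly6d listed at 0 in the knockout). Most of that sum was Irf8, which other leukocytes also express, with 86.2 FPKM in the Rag2 KO and 53.5 FPKM in BALB/c WT. Epithelial markers were higher for 10 of 10 (340.4 against 85.9 FPKM) and for 9 of 10 (136 against 39.0 FPKM). Blood endothelial markers were within 2-fold for 8 of 8 in both comparisons (115 against 92.3 FPKM, and 126 against 91.4 FPKM). Fibroblast markers were within 2-fold for 12 of 12 in both (15827 against 15671 FPKM, and 13942 against 14254 FPKM). The part of leukocyte and epithelial RNA in the differences of the sensing genes was not tested.

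**Figure D5:**
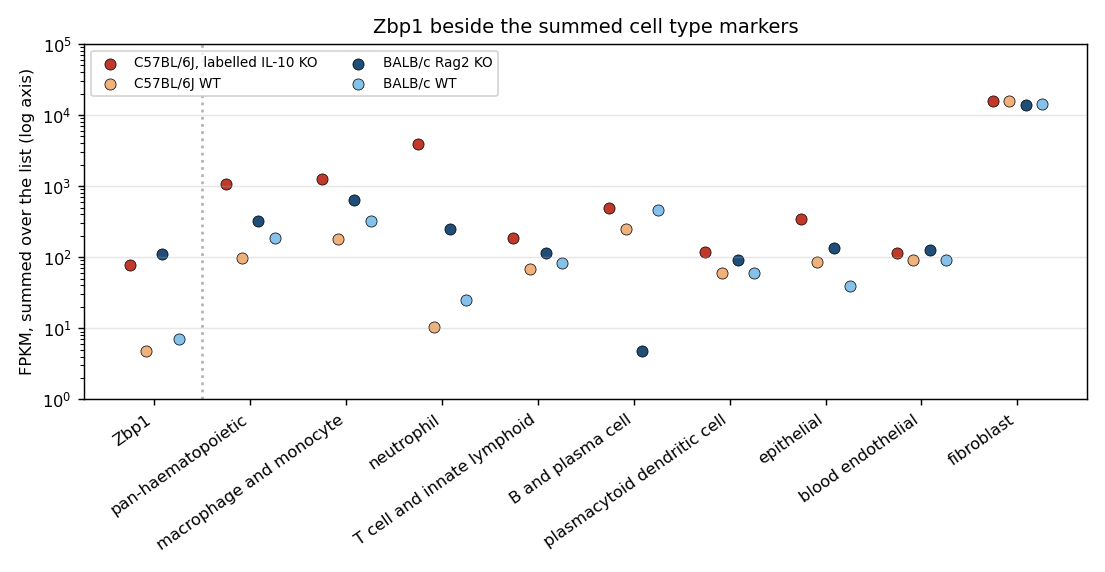
FPKM of Zbp1 and summed FPKM of each list of cell type markers (log axis) in the 4 libraries, 1 point per library. Zbp1 is higher in each knockout library than in its wild type. So are all the summed lists except those of B and plasma cells and of fibroblasts. The pan-haematopoietic sum is highest in the library labelled IL-10 KO (1071 FPKM, against 325 or less elsewhere). The B and plasma cell sum is lowest in the Rag2 KO (4.75 FPKM).

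Calls at the 2-fold limit depended on the value added before taking logs. With 5 FPKM added in place of 1, Zbp1 was the only one of the 10 genes at least 2-fold higher in either comparison (3.07 in the IL-10 KO comparison and 3.24 in the Rag2 KO comparison). Set against the wild type of the other strain, the library labelled IL-10 KO had a Tbk1 difference of -0.00028 and a Tmem173 difference of 0.71, below 2-fold, and the Rag2 KO had a Tmem173 difference of 1.11, above it.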

How the data were processed

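Stromal cells of 4 mouse groups, 1 library each, were profiled by RNA sequencing with a stranded mRNA kit, per the labels. The authors deposited FPKM, with 1 value per gene symbol, per the file headers. Cuffdiff 2.2.1, Bowtie2 2.2.8, TopHat2 2.1.1, SAMtools 0.1.18 and the build mm10 are listed in the submitters' processing notes. The annotation, the strand setting and the library scaling were not given in the sources used here.

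FPKM were transformed as log2 of FPKM plus 1. Genes with at least 1 FPKM in either library were compared, and a difference of 1 counted as 2-fold. Depth was estimated from the steps between low FPKM, of which 386 of 790 lay within 5% of the value of 1 fragment once 190 nt was subtracted from transcript length. Fragment numbers of a gene use its longest RefSeq-linked GENCODE M21 transcript and are approximate. Counting intervals are exact binomial ones at 95%. At the lowest depth, 3 fragments of a transcript with 2000 nt correspond to 0.199 FPKM. The 10 genes, the 18 lists (202 of 204 entries found, Adgre1 and Mzb1 not used here) and all rules were chosen with earlier results of these data known. All 10 genes are named, with up to 4 genes per list that had the largest absolute differences in a knockout comparison, some genes fixed by name, and the nearest profiles, and some genes that the rule allows are not reported here. Positions and promoters are from RefSeq (GRCm38.p6, the build mm10). Calculations used Python 3.11.15, pandas 2.3.3, NumPy 2.4.6, SciPy 1.17.1 and matplotlib 3.10.9, and were tested on simulated data. Housekeeping genes had medians of 0.27 and 0.26 in the knockout comparisons. Other pseudocounts, filters, scalings and the wild type of the other strain were tried.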

Additional observations from a re-analysis of the deposited data

Results flagged for a closer look

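Mb21d1, the gene of cGAS, was the only one of the 10 genes whose difference had opposite signs in the knockout comparisons. It was lower in the library labelled IL-10 KO than in C57BL/6J WT (2.197 against 2.89 FPKM) and higher in the Rag2 KO than in BALB/c WT (2.75 against 2.48 FPKM). The IL-10 difference less the Rag2 difference was -0.39 in log2 of FPKM plus 1. This difference was not tested, and both counting intervals include 0.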

How the results depend on the processing

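The count of genes at least 2-fold higher, 4 in the IL-10 KO comparison and 3 in the Rag2 KO comparison, fell to 1 in each with a pseudocount of 5, where 4.78% and 2.25% of all genes were called. Under the other alternatives it ran from 3 to 5 and from 3 to 4. The count of genes at least 2-fold lower was 0 throughout. The median difference of the 10 genes in the IL-10 KO comparison was 0.57 with a pseudocount of 5 and 0.95 among the 9 genes with at least 5 FPKM. In the Rag2 KO comparison it was 0.60 with a pseudocount of 5 and 0.63 with small RNAs left out and the libraries rescaled to a common sum. Between the wild types it was 0.077, in place of -0.06, among the 7 genes with at least 5 FPKM. For the pseudocount and the filters the alternative's own construction gives these shifts. For the rescaling the cause was not tested.

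Leaving out small RNAs, which held 8.82% to 14.8% of the FPKM of a library, moved the median of all genes by -0.12 in the IL-10 KO comparison and -0.14 in the Rag2 KO comparison, and Tmem173 then had 0.96 in the IL-10 KO comparison. It also changed the share of higher genes among all genes 2-fold apart in the Rag2 KO comparison to 51.0%, in place of 68.5%. Of 140 recomputed differences of the 10 genes, 3 took the other sign, none of them 2-fold. These were Tbk1 (-0.00028) and Mb21d1 (-0.06), each set against the wild type of the other strain, an alternative chosen after seeing the data, and Dhx58 between the wild types (0.0076, after rescaling). All 40 recomputed differences between the knockout comparisons stayed within their counting error. No paired analysis was possible because each group has 1 library. Depth limits Mb21d1 and the wild-type values of Dhx58 most.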

Other observations

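The balance among the sensing genes differed between knockout and wild-type libraries. LGP2 transcript (Dhx58) per RIG-I transcript (Ddx58) was 0.592 in the library labelled IL-10 KO, against 0.272 in C57BL/6J WT, and 0.564 in the Rag2 KO, against 0.280 in BALB/c WT. MDA5 transcript (Ifih1) per RIG-I transcript was 0.951 against 0.779 and 1.002 against 0.724 in the same pairs. Zbp1 exceeded Ripk3 by 5.11-fold in the library labelled IL-10 KO, against a ratio of 0.712 in C57BL/6J WT, and by 6.20-fold in the Rag2 KO, against 1.05 in BALB/c WT. Without Zbp1, the summed FPKM of the other 9 genes was 129 against 73.9 (1.75-fold) in the IL-10 KO comparison and 135 against 83.8 (1.61-fold) in the Rag2 KO comparison. All these ratios are between levels per length, and none was tested.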
